A study of Mus musculus with 6 samples.

Results

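Myeloid C-type lectin receptors are surface receptors, mostly of neutrophils, monocytes, macrophages and dendritic cells, that sense fungal and bacterial sugars, glycolipids and products of dead cells through a lectin-like domain. The 9 genes described here were Clec4a1, Clec4a2, Clec4a3, Clec4d, Clec4e, Clec4n, Clec5a, Clec7a and Clec12a, out of 21640 probe sets on the array that named a single gene. They were chosen by symbol, with the difference between the genotypes on these arrays already known, so their levels, differences and calls are a description and no p is given for them. Each of the 9 had exactly 1 probe set that named it alone. Gene expression had been measured on Affymetrix arrays in cells labelled CD4+ T cells, which include helper and regulatory T lymphocytes. The cells came from C57BL/6 mice, aged 6 weeks per the series' design text. The control group was wild type (WT, 3 arrays). The other was labelled CBS-KO (3 arrays), from mice deficient in CBS, cystathionine beta-synthase, an enzyme that uses homocysteine and can make hydrogen sulfide. No treatment is named for either group, and the sources used here give neither the allele nor how the CD4+ cells were isolated or how pure they were.

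Activating lectin receptors signal through immunoreceptor tyrosine-based motifs, short stretches of sequence whose phosphorylated tyrosines bind the kinase Syk. Clec7a (Dectin-1) carries such a motif itself, whereas Clec4e (Mincle), Clec4d (Mcl) and Clec4n (Dectin-2) use the adaptor encoded by Fcer1g, and Clec5a uses the adaptor encoded by Tyrobp. Syk then acts through Card9, Bcl10 and Malt1 on NF-kappaB, which drives cytokine genes. Clec4a2 (Dcir) and Clec12a (Micl) carry inhibitory motifs that recruit phosphatases such as the product of Ptpn6. Clec4a1 and Clec4a3 are close relatives of Clec4a2. Resting T lymphocytes are not known as a site of expression of most of these receptors.

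The whole table held 34760 probe sets, and values are given as log2(intensity + 16), called log2 level below. Array medians lay between 7.37 and 7.55. Probe sets with a 6-array mean of more than 6.99, the 40th percentile, were tested. A call means a limma p below 0.05 after Benjamini-Hochberg adjustment across the 20856 probe sets tested. Defining markers of the labelled cell type were high. The Cd4 log2 level was 13.34 ± 0.10 in WT against 12.77 ± 0.28 in CBS-KO arrays (SD, n = 3 each), and its mean ranked at percentile 99.3 on the array. Cbs itself did not separate the groups (7.35 ± 0.15 against 7.41 ± 0.20, SD, n = 3), and as the region its probes match is not stated in the sources used here, it is no check of the labels. Y-linked Eif2s3y stood at 9.41 and 9.19 in CBS-KO 1 and 2 and at 4.90 or below in the other 4 arrays. Sex and genotype thus overlapped in part. The labels call the arrays of a group biological replicates, the sources used here do not say whether each came from a separate mouse, and spreads are those between these arrays.

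All 9 genes lie on mouse chromosome 6. The stretches before the gene start are shown for 3 members whose levels differed between the groups, and for Clec4b1, a neighbour inside the same cluster whose level did not follow them. The mean of Clec4b1 ranked at percentile 5 on the array, and whether its probe set gives signal above background was not tested. Each is the 250 bases before the start farthest upstream, from RefSeq, build GRCm38.p6, written 5′ to 3′ on the gene's own strand. Capitals mark GAGGAA, a core recognised by Ets factors such as PU.1 (read as TTCCTC on the other strand), and TTGCNNAA, a core recognised by C/EBP factors (TTNNGCAA on the other strand).
Clec4e, chr6:123289872-123290121, minus strand: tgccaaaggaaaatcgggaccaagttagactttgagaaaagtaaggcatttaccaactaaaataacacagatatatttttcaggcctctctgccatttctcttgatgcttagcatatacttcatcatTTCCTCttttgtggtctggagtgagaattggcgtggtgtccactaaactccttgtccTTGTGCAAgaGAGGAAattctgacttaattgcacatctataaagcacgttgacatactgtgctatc
Clec12a, chr6:129349994-129350243, plus strand: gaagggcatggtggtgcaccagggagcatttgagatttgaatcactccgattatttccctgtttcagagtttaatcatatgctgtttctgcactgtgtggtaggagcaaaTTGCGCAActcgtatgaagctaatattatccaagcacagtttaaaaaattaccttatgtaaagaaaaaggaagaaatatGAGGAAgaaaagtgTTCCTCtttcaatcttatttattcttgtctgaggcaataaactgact
Clec7a, chr6:129472786-129473035, minus strand: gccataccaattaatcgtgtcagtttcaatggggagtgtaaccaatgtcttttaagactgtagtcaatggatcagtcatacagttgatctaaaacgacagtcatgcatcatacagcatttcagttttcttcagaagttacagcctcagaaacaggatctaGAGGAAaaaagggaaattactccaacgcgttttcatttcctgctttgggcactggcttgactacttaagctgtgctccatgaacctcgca
Clec4b1, chr6:123049712-123049961, plus strand: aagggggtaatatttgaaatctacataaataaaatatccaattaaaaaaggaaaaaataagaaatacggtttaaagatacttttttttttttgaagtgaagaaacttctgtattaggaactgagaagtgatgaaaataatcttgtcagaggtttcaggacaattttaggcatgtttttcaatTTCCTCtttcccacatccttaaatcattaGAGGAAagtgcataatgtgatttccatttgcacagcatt

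In Clec4e the TTGCNNAA match and the nearer GAGGAA match began 66 and 56 bases before the start, and in Clec12a the TTGCNNAA match began 140 bases and the GAGGAA matches 61 and 47 bases before it. The table held 10 such windows for 8 members, and none was matched for Clec4n. GAGGAA was found in 8 of these 10 windows, belonging to 7 members, against 23.3% of all 32851 windows of the same length. The 2 windows of Clec7a overlap almost wholly and hold the same match, which is counted in both. TTGCNNAA was found in 2 of the 10, those of Clec4e and Clec12a, against 9.56% of all windows. GAGGAA was absent from the window of Clec4a2 and from 1 of the 2 windows of Clec4a3, and it was present in those of Clec4b1 and Clec4b2. A match describes the letters of a window and not binding.

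All 9 members had higher levels in every CBS-KO array than in any WT array, and 8 of the 9 group means differed by at least 2-fold. Differences of group means ran from 0.97 log2 units for Clec4d to 2.62 for Clec12a, with a median of 1.90 over the 9 members against -0.05 over all tested probe sets. Of all tested probe sets, 15% had every CBS-KO array above every WT array and 5.06% were at least 2-fold higher in the mean. These shares were not taken over probe sets below the filter, where 3 of the members lay. WT means of 8 members lay below the filter level of 6.99, Clec12a being the exception, so the size of their differences depends on how the array behaves at low signal. In these bulk samples a change in the number of cells of a type and a change of RNA per cell cannot be told apart.

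**Figure D1:**
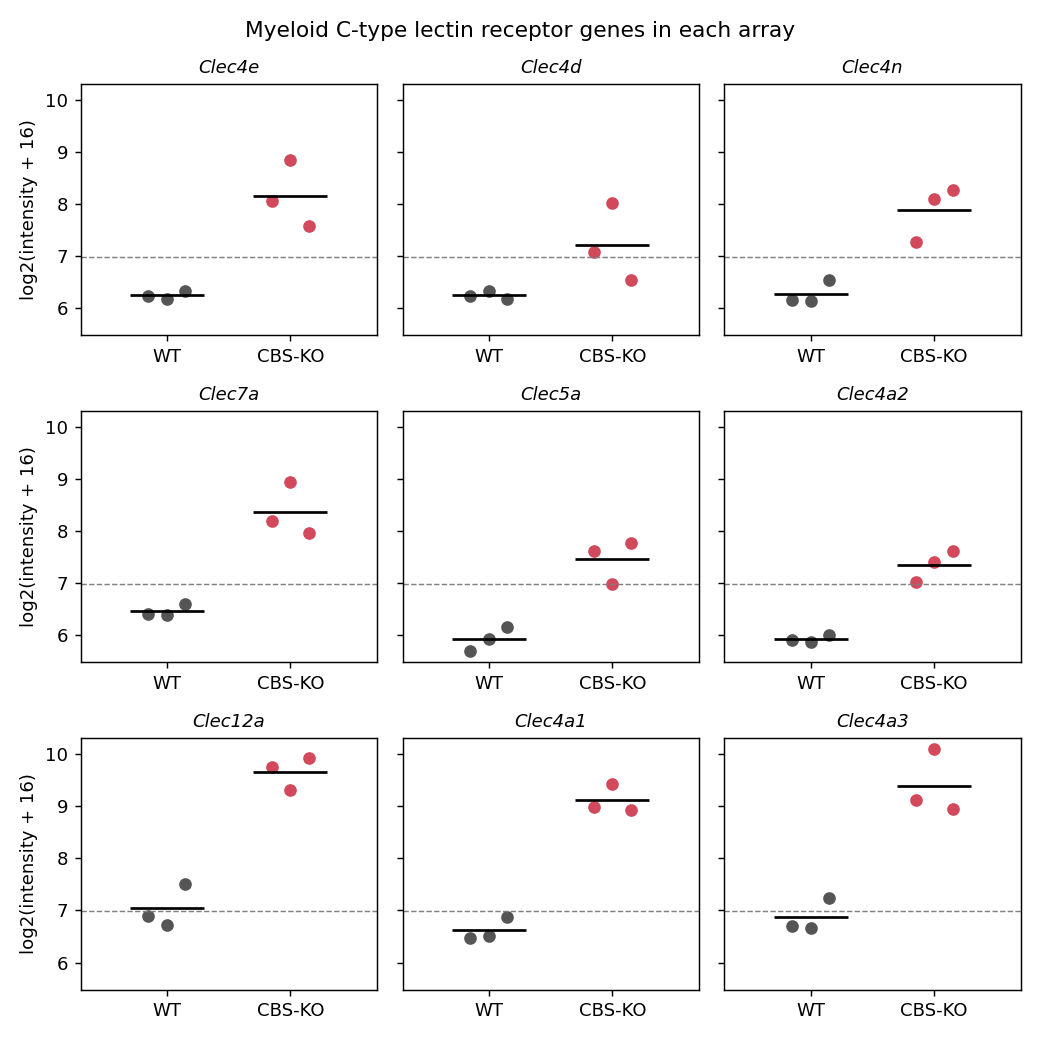
Log2(intensity + 16) of each member (one panel a gene) in the 3 WT arrays (grey points) and the 3 CBS-KO arrays (red points), in replicate order from left to right. Horizontal bars are group means and the dashed line is the filter level of 6.99. In every panel the CBS-KO points lie above the WT points, with the smallest gap, 0.20 log2 units, in Clec4d.

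Clec4e encodes Mincle, a receptor for mycobacterial glycolipid and for a protein released by dead cells. Its log2 level (probe set 10547664) was 6.24, 6.17 and 6.33 in the WT arrays (in replicate order here and below), against 8.05, 8.85 and 7.57 in the CBS-KO arrays. All WT arrays lay close together below the filter level, and CBS-KO 2 stood above the other CBS-KO arrays. The group difference was 1.91 (SE 0.30).

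Clec4d encodes Mcl, which forms complexes with Mincle and the same adaptor. Its level (probe set 10541614) was 6.24, 6.34 and 6.17 in the WT arrays and 7.09, 8.02 and 6.54 in the CBS-KO arrays. CBS-KO 3 stood only 0.20 units above the highest WT array, so the groups were nearly in contact. With group means of 6.25 ± 0.09 and 7.22 ± 0.75 (SD, n = 3), Clec4d had the smallest difference (0.97) and the largest spread among CBS-KO arrays of the 9 members. Its mean over the 6 arrays fell below the filter.

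Clec4n encodes Dectin-2, a receptor for fungal mannans. Its level (probe set 10541605) was 6.16, 6.14 and 6.54 in the WT arrays and 7.28, 8.09 and 8.26 in the CBS-KO arrays. Here CBS-KO 1 was the lowest CBS-KO array and CBS-KO 3 the highest, unlike in Clec4e and Clec4d. The difference of the means was 1.596 (SE 0.27), and of the members tested it lay nearest to the filter.

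Clec7a encodes Dectin-1, the receptor for fungal beta-glucan. Levels of its probe set (10548375) were 6.41, 6.38 and 6.60 in WT and 8.19, 8.94 and 7.95 in CBS-KO arrays, again with CBS-KO 2 the highest and CBS-KO 3 the lowest. CBS-KO arrays stood on average 1.90 (SE 0.25) above WT.

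Clec5a encodes a receptor that signals through the Tyrobp adaptor. It had levels (probe set 10544273) of 5.70, 5.93 and 6.16 in WT and 7.62, 6.99 and 7.77 in CBS-KO arrays. In contrast to Clec7a, CBS-KO 2 was the lowest CBS-KO array. The means were 5.93 ± 0.23 and 7.46 ± 0.41 (SD, n = 3), 1.53 apart, and the probe set fell below the filter.

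Clec4a2 encodes Dcir, an inhibitory receptor of the family. Its levels (probe set 10541587) were 5.90, 5.87 and 6.01 in WT and 7.03, 7.40 and 7.62 in CBS-KO arrays. The means were 5.93 ± 0.08 and 7.35 ± 0.30 (SD, n = 3), 1.42 apart. Its probe set, too, was below the filter and stayed untested.

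Clec12a encodes Micl, an inhibitory receptor for uric acid crystals. Its levels (probe set 10542164) were 6.89, 6.72 and 7.499 in WT and 9.76, 9.30 and 9.92 in CBS-KO arrays. It had the largest difference of the members, 2.62 (SE 0.25), which is 6.17-fold on this scale. The WT arrays spread more than the CBS-KO arrays here (SD 0.41 against 0.32), the reverse of the other 8 members.

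Clec4a1 and Clec4a3, relatives of Clec4a2 in the same cluster, had differences close to that of Clec12a. Levels of Clec4a1 (probe set 10541555) were 6.47, 6.51 and 6.88 in WT and 8.98, 9.43 and 8.93 in CBS-KO arrays, a difference of 2.50 (SE 0.19). The gap of 2.05 units between the highest WT and the lowest CBS-KO array was the widest of the 9. Levels of Clec4a3 (probe set 10541564) were 6.70, 6.67 and 7.23 in WT and 9.11, 10.09 and 8.94 in CBS-KO arrays, a difference of 2.51 (SE 0.33). Probe sequences were not used here, so whether probe sets of these related genes also bind each other's transcripts was not tested.

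Of the 9 members 6 passed the filter, and all 6 were called higher, against 5.09% of all tested probe sets called higher (1062 of 20856). They passed largely through their CBS-KO levels and the contrast was known when they were chosen, so nothing is read from the count. It fell to 2 without WT 1 or without WT 2, to 4 without WT 3 and to 3 without CBS-KO 1, when 93, 73, 672 and 166 probe sets were called in all.

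Within the CBS-KO group the members split in their order over the arrays. The difference between CBS-KO 2 and CBS-KO 3 was positive for 5 members, at 1.48 for Clec4d, 1.28 for Clec4e, 1.15 for Clec4a3, 0.99 for Clec7a and 0.50 for Clec4a1. For 4 it was negative, at -0.17 for Clec4n, -0.22 for Clec4a2, -0.62 for Clec12a and -0.78 for Clec5a. With 1 array on each side these are values without a test. In the WT group, WT 3 was the highest array for 8 of the 9 members, all but Clec4d.

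Markers of other cell types moved with the members on these arrays. Of 15 neutrophil markers tested, 14 were called higher (median difference 3.35), and of 13 monocyte and macrophage markers 12 were (median 1.79). All 8 erythroid markers tested were called higher (median 2.99), and 5 of 13 CD4 T cell markers were called lower (median -0.60), where 4.47% of all tested probe sets were called lower. The mean log2 level of the neutrophil list ran from 6.84 to 7.51 in WT and from 10.22 to 10.66 in CBS-KO arrays, and that of the monocyte and macrophage list from 7.66 to 8.28 and from 9.47 to 10.04. Dendritic cell markers had 3 of 11 called higher (median 0.48, list mean 8.36 to 8.62 in WT and 8.78 to 9.25 in CBS-KO arrays), NK cell markers 2 of 8 higher and 1 lower, and B cell markers 1 of 9 higher. List means ran from 7.87 to 8.64 in WT and from 10.78 to 12.04 in CBS-KO arrays for erythroid markers, and from 12.28 to 12.40 and from 11.26 to 11.95 for CD4 T cell markers. For NK cell markers they ran from 9.58 to 10.04 and from 9.83 to 10.44, and for B cell markers from 9.53 to 10.06 and from 9.04 to 10.91. The part of these cells in the levels of the lectin receptors was not tested. Without WT 2 these counts were 6 neutrophil, 0 monocyte and macrophage, 2 erythroid, 0 dendritic cell and 0 CD4 T cell markers, and without WT 1 they were 6, 1, 3, 1 and 0. In the fit that left out CBS-KO 1 the 5 counts stood at 7, 6, 2, 1 and 1. Calls of CD4 T cell markers rose to 13 of 13 without CBS-KO 2. Those of B cell markers, counted in either direction, went to 4 without CBS-KO 2. With Y-linked signal as a model term, the genotype difference is that of CBS-KO 3 alone from the WT mean. For the CD4 T cell list this difference was -1.09, against -0.69 and -0.40 in CBS-KO 1 and 2. In CBS-KO 1 and 3 the mean of the B cell list lay at -0.20 and -0.68 from the WT mean.

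Single markers had large differences. Lcn2, an iron-scavenging protein of neutrophils, rose by 5.33 (SE 0.19, limma adjusted p = 0.000199). Lyz2, the lysozyme of myeloid cells, rose by 3.67 (SE 0.39, limma adjusted p = 0.00878), and Csf1r, the growth factor receptor of macrophages, by 2.40 (SE 0.36, limma adjusted p = 0.0173). Flt3, a receptor of dendritic cells and their precursors, rose by 2.19 (SE 0.24, limma adjusted p = 0.00882), the most of the 11 dendritic cell markers. In that list 3 markers had lower means in CBS-KO arrays, Ccr7 (-0.60), Bst2 (-0.25) and Cd83 (-0.16), none of them called. Csf1r, Ccr7, Bst2 and Cd83 were named after their values were seen.

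Marker genes also differed in their order over the CBS-KO arrays. Of the 15 neutrophil markers, 9 stood higher in CBS-KO 2 than in CBS-KO 3, namely Retnlg (by 2.21), Csf3r (2.15), Mmp9 (2.05), Cxcr2 (1.996), Mmp8 (1.18), S100a8 (0.82), S100a9 (0.62), Lcn2 (0.22) and Ly6g (0.14). The other 6 stood lower, at -1.23 for Prtn3, -1.08 for Ltf, -0.92 for Elane, -0.92 for Mpo, -0.89 for Camp and -0.30 for Ngp. Higher values in CBS-KO 2 were common in most lists, at 12 of 13 monocyte and macrophage markers, 9 of 11 dendritic cell markers, 8 of 8 NK cell markers, 9 of 9 B cell markers (median 1.84), 13 of 13 CD4 T cell markers (median 0.75) and 17 of 18 adaptors and proximal kinases. Among erythroid markers it was 0 of 8. The array medians also differed, at 7.55 in CBS-KO 2 and 7.37 in CBS-KO 3. The positive differences of Clec4d, Clec4e, Clec4a3, Clec7a and Clec4a1 thus had the sign of most lists, and the negative ones of Clec5a, Clec12a, Clec4a2 and Clec4n did not.

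**Figure D2:**
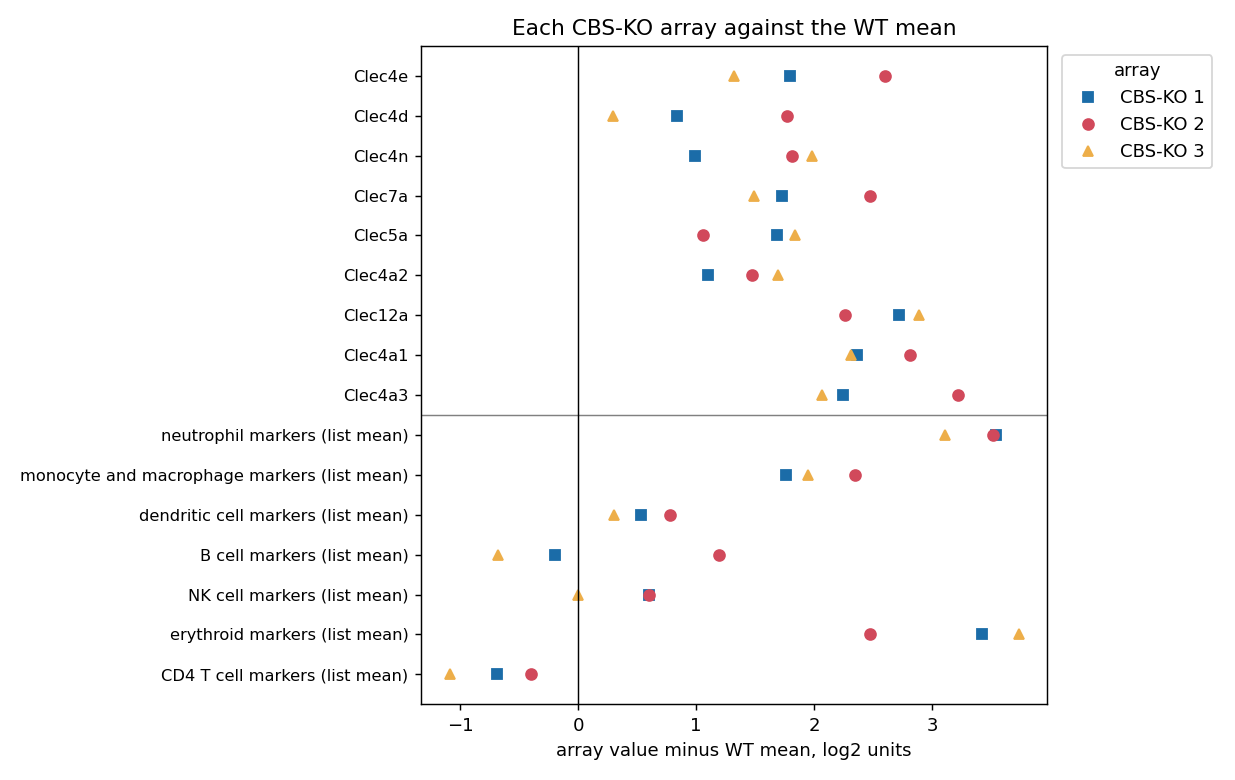
Level of each member (upper rows) and mean over the tested genes of each marker list (lower rows) in each CBS-KO array, as the difference from the WT mean in log2 units; squares, circles and triangles are CBS-KO 1, 2 and 3. CBS-KO 2 is the highest array for Clec4e, Clec4d, Clec7a, Clec4a1 and Clec4a3, and the lowest for Clec5a and Clec12a, while the erythroid mean is lowest in CBS-KO 2 at 2.48 and highest in CBS-KO 3 at 3.73.

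The array without Y-linked signal in the CBS-KO group, CBS-KO 3, allowed a comparison with WT in which no array had such signal. In it the members stood between 0.29 (Clec4d) and 2.89 (Clec12a) units above the WT mean. This rests on 1 array and, like the contrast itself, is a description.

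Neighbouring lectin genes that are not members had small differences, with the exception of Clec9a and, less so, Clec1b. Of the 9 protein-coding genes from Clec4a1 to Clec4e 6 are members, and Clec4a4, Clec4b1 and Clec4b2 are not. Clec4b1, between Clec4a4 and Clec4a2, had levels of 5.15, 5.11 and 5.11 in WT and 5.16, 5.19 and 5.11 in CBS-KO arrays. Clec4a4 had group means of 5.17 and 5.27, and Clec4b2 of 5.86 and 6.23. All 3 lay below the filter, their groups overlapped, and their differences were 0.10 for Clec4a4, 0.03 for Clec4b1 and 0.37 for Clec4b2. Their means ranked at percentiles 6.2, 5 and 19.8 on the array, so low signal limits what these differences show. Between Clec12a and Clec7a lie Clec12b, Clec1b, Clec9a and Clec1a. Clec9a, a receptor of dendritic cells for dead cells, rose by 1.69 (SE 0.39, limma adjusted p = 0.0464), and its levels were 6.42, 6.76 and 7.36 in WT arrays against 8.67, 9.17 and 7.76 in CBS-KO arrays. The untested Clec12b, Clec1b and Clec1a differed by 0.01, 0.52 and -0.03.

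**Figure D3:**
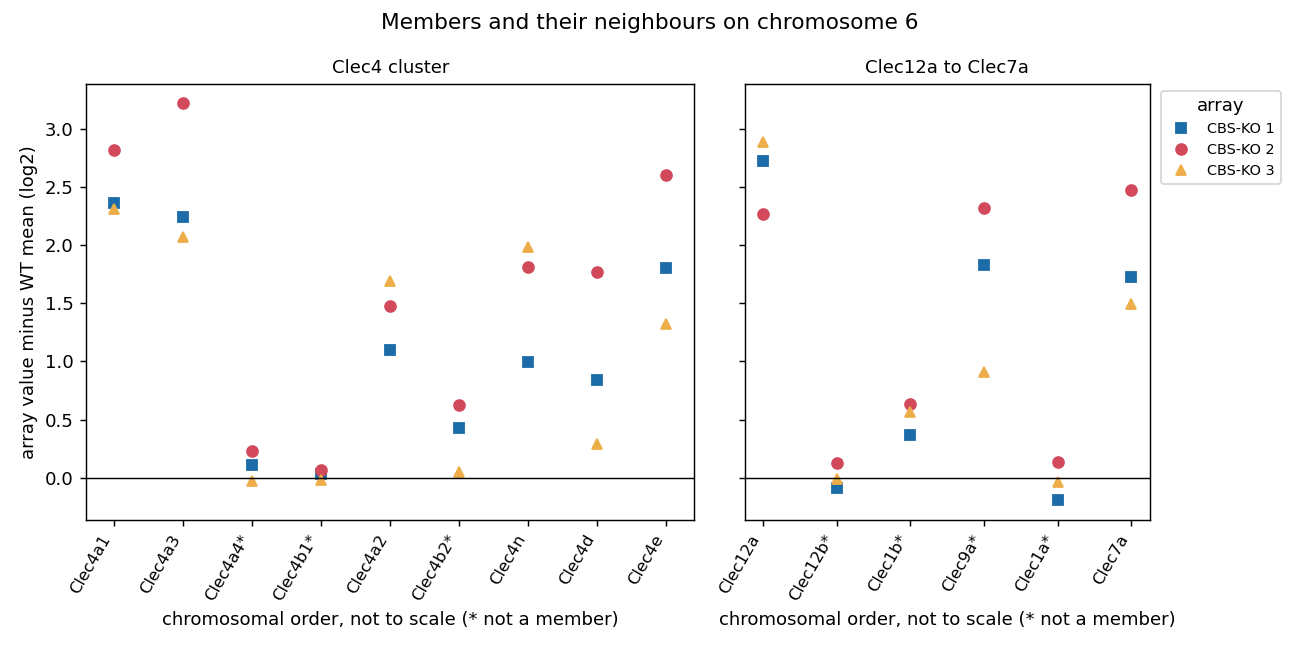
Difference of each CBS-KO array from the WT mean, in log2 units, for the protein-coding genes from Clec4a1 to Clec4e (left) and from Clec12a to Clec7a (right), in chromosomal order and not to scale; an asterisk marks a gene that is not a member. Points of Clec4a4, Clec4b1, Clec12b and Clec1a lie near 0 between members that differ by up to 2.62.

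Among the partners through which the receptors signal, the adaptor genes Fcer1g and Tyrobp rose, and no gene of the CARD9 module passed the test at the settings given above. Of 18 tested adaptors and proximal kinases, 5 were called higher and 0 lower, a median difference of 0.10. Fcer1g, the adaptor of Clec4e, Clec4d and Clec4n, had levels of 9.53, 9.38 and 10.16 in WT and 12.07, 12.03 and 11.63 in CBS-KO arrays, a rise of 2.22 (SE 0.23, limma adjusted p = 0.00827). Tyrobp, the adaptor of Clec5a, rose by 2.17 (SE 0.28, limma adjusted p = 0.0131), from 8.72, 8.87 and 9.69 to 11.30, 11.53 and 10.96. Both adaptors are shared with Fc receptors and other receptors of myeloid and NK cells.

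Further members of that list were the kinase Btk (1.55, SE 0.25, limma adjusted p = 0.0206), the phospholipase Plcg2 (1.25, SE 0.24, limma adjusted p = 0.0306) and, named because it completes the 5, the kinase Fgr (1.41, SE 0.32, limma adjusted p = 0.045). Syk differed by 0.89 (SE 0.22, limma adjusted p = 0.0535), with all CBS-KO arrays above all WT arrays but short of the threshold. Syk was 8.72, 8.80 and 9.18 in WT and 9.71, 10.19 and 9.47 in CBS-KO arrays. Hcst, an adaptor of NK and T cell receptors, had a difference of -0.54 (SE 0.20, limma adjusted p = 0.116).

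In the list of the CARD9 module and its transcription factors, limma called 0 of 14 tested genes at the adjusted threshold (median -0.19). At an unadjusted p below 0.05, 1 of the 14 was higher and 3 were lower. The count was 4 without CBS-KO 2 and 1 under several other settings, such as a common array median or the replicate number as a block. Card9 differed by 0.24 (SE 0.15, limma adjusted p = 0.322), Bcl10 by -0.32 (SE 0.15, limma adjusted p = 0.2) and Malt1 by -0.55 (SE 0.23, limma adjusted p = 0.16), none of them called. Irf5, an interferon regulatory factor of myeloid cells, came nearest (1.07, SE 0.28, limma adjusted p = 0.0563). Among the 11 inhibitory phosphatases and brakes, limma likewise called 0 (median 0.00), with 1 higher and 2 lower at an unadjusted p below 0.05. Without CBS-KO 2 it called 5 of them. Ptpn6, the phosphatase recruited by Clec4a2 and Clec12a, had levels of 11.50 in both groups (95% confidence interval of the difference -0.33 to 0.33).

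Output genes of the pathway were mixed. Of 22 measured, 11 passed the filter, 2 were called higher and 1 lower (median 0.04). Il1b, the cytokine made by activated myeloid cells, rose by 2.34 (SE 0.53, limma adjusted p = 0.0438), from 6.79, 6.93 and 6.99 to 8.80, 10.57 and 8.35. As in Clec4e, CBS-KO 2 was the highest array. Ccl3, a chemokine for monocytes and T cells, rose by 1.88 (SE 0.33, limma adjusted p = 0.0246). Pycard, the inflammasome adaptor, fell by 0.89 (SE 0.13, limma adjusted p = 0.0167). Tnf differed by -0.49 (SE 0.18, limma adjusted p = 0.115), and Il6, Il10, Il12b and Il23a lay below the filter, with differences between -0.05 and 0.18.

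**Figure D4:**
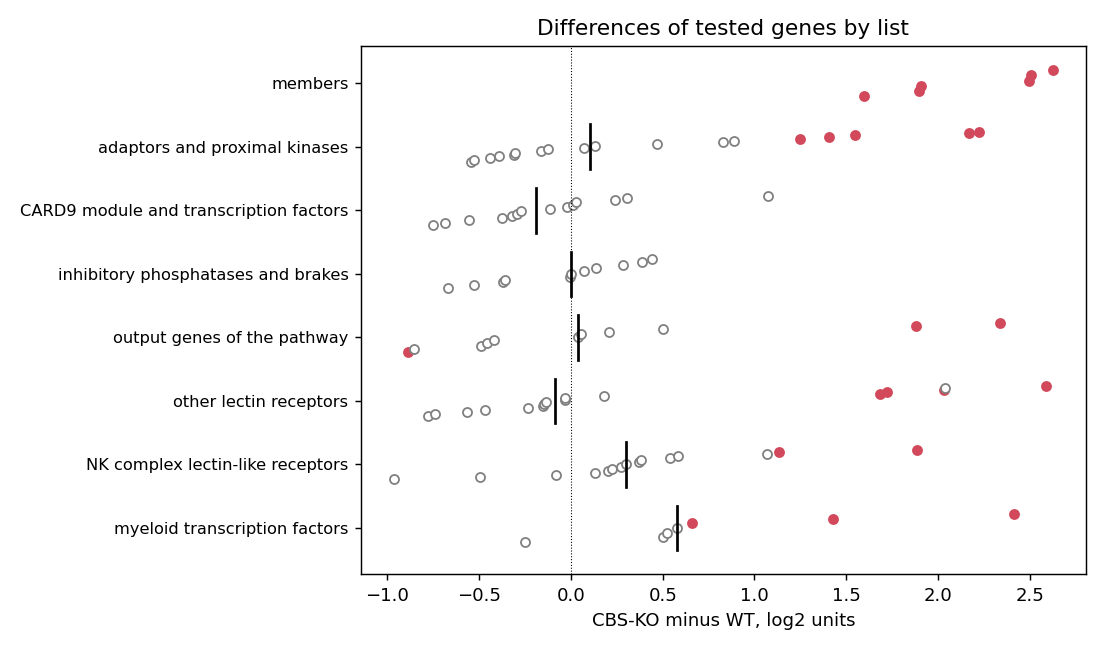
CBS-KO minus WT difference in log2 units of every tested gene in each list; filled points passed the adjusted threshold, open points did not, and a vertical bar marks the median of each list other than the members. The adaptor, output and lectin lists each hold a few genes beyond 1 unit beside medians of 0.10, 0.04 and -0.08.

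Other C-type lectin receptors were measured for comparison. Of 42 with a probe set, 16 passed the filter, 4 were called higher and 0 lower (median -0.08). Cd209d, a relative of the dendritic cell receptor DC-SIGN, rose most (2.59, SE 0.40, limma adjusted p = 0.0183). Mrc1, the mannose receptor of macrophages, rose by 2.03 (SE 0.28, limma adjusted p = 0.0147) and Cd93, a receptor of myeloid and endothelial cells, by 1.72 (SE 0.31, limma adjusted p = 0.0267); Clec9a completed the set. Cd69, an early activation marker of lymphocytes, had a difference of -0.56 (SE 0.23, limma adjusted p = 0.151) and Clec2d, a ligand of an NK cell receptor, of -0.47 (SE 0.23, limma adjusted p = 0.224). Of 15 tested lectin-like receptors of the NK complex, also on chromosome 6, 2 were called higher, Klrb1b (1.89, SE 0.36, limma adjusted p = 0.0291) and Klri2 (1.13, SE 0.26, limma adjusted p = 0.0429), with a median of 0.30 and positive differences in 12.

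Transcription factors of myeloid cells were set beside the promoter windows. Of 7 tested, 3 were called higher and 0 lower (median 0.58). Spi1, which encodes PU.1, rose by 2.42 (SE 0.27, limma adjusted p = 0.00942), from 8.08, 8.04 and 8.92 to 10.81, 11.01 and 10.46. Irf8 rose by 1.43 (SE 0.29, limma adjusted p = 0.0341) and Cebpa by 0.66 (SE 0.15, limma adjusted p = 0.045), whereas Cebpb (0.50) and Cebpe (0.53) did not pass.

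These partner and family calls rested on few arrays. The 17 calls over the 7 lists of partners, relatives and transcription factors became 0 without WT 1 or without WT 2, 2 without CBS-KO 1, 10 without WT 3 and 39 without CBS-KO 2. The count of adaptors and kinases fell from 5 to 3 with no filter, and that of output genes rose from 3 to 5 after shifting every array to a common median.

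The genes whose profile over the 6 arrays lay nearest to the mean profile of the 6 tested members were sought among 12770 other genes, by Euclidean distance of values centred on the WT mean. The mean profile stood at 1.98, 2.53 and 2.01 in CBS-KO 1 to 3. Plxnb2, a semaphorin receptor, lay nearest (distance 0.28), with a difference of 2.19 (SE 0.18). It was followed by Sirpa, an inhibitory receptor of myeloid cells for CD47 (0.46), Ifitm1 (0.49), the annexin gene Anxa1 (0.50), Ifi44l (0.50), the transferrin gene Trf (0.51), Treml4 (0.52) and the adaptor gene Fcer1g (0.52). Differences of these 8 genes ran from 2.14 for Treml4 to 2.34 for Anxa1. The profile includes the contrast by which the members were known, so the ranking is a description of likeness over these 6 arrays.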

How the data were processed

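The deposited series table gave, per the labels' protocols, an intensity for biotinylated cRNA made from 6 ug of total RNA; how the authors corrected background, normalized and summarised probe sets is not stated in those sources. Scale was read from the values (linear, positive), and centring stays unknown. Values were log2(intensity + 16), fitted with limma 3.58.1 in R 4.3.3 (trended variances, all 6 arrays, two-sided, Benjamini-Hochberg adjustment), after a filter at the 40th percentile of the mean. Directions are CBS-KO minus WT. In a list, the brightest probe set that named a single gene stood for a gene. The members, lists and settings were chosen with earlier results of these data known. The text names all members, up to 4 genes of smallest p from each list, the 8 nearest profiles and genes for the label checks; others it names were chosen after their values were seen, as were the neighbours, the motifs and the promoter windows shown. The calculation was tested on simulated data with independent normal values. It called 57% of true differences of 1 log2 unit and 89% of those of 2 units, with 8 false calls. A gene without a call may thus still differ by about 1 unit. Replicate numbers were not taken as pairs, since the labels do not name them as pairs. Same-numbered arrays deviated together with correlations of 0.06, 0.16 and 0.11, against -0.12 to 0.05 for arrays of different numbers. Gene order and promoters are from RefSeq (GRCm38.p6). The number of arrays, 3 a group, limits precision. Figures used matplotlib 3.10.9.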

Additional observations from a re-analysis of the deposited data

How the results depend on the processing

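Differences of the members kept their sign under all 17 alternatives and 1 more chosen after seeing the data (only probe sets that name a single gene), wherever they were tested. For most settings this was fixed in advance. With groups that do not overlap, leaving out an array or changing the offset cannot reverse a sign. Filters, variance settings, the replicate block and the choice of probe sets leave the difference itself unchanged. With the Y-linked term the difference is that of CBS-KO 3 alone from the WT mean, and CBS-KO 3 lay above every WT array for all members. Array medians lay between 7.37 and 7.55, too close for a common median to bridge the gaps of the tested members, the smallest being 0.73 for Clec4n. Only quantile normalization could have reversed a sign. With no filter, 1126 probe sets were called in place of 1995, and 8 of the 9 members, all but Clec4d. A filter at the 60th percentile left 1 member tested and called, Clec12a. With Y-linked signal as a model term 4976 probe sets and 30 partner and family genes were called. Leaving out each array in turn gave 73 to 6427 probe sets, 2 to 6 members, 0 to 39 partner and family genes and 8 to 59 marker genes, where the full set gave 1995, 6, 17 and 46. With the replicate number as a block, 2093 probe sets, 6 members, 14 partner and family genes and 48 marker genes were called; every array deviated most like the array of its own number in the other group, a hint from the data and not the design. After quantile normalization and with a common array median, 52.3% and 49.9% of calls were higher, against 53.2%. The causes of these shifts were not tested. Signal over background is not given, so low WT levels may be bounds.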

Other observations

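Of the 6 measured lectin-like receptors of the NK complex below the filter, which were not tested, 2 had every CBS-KO array above every WT array. The share was 15% over all tested probe sets and was not taken over those below the filter. Klra2 had a mean log2 level of 5.78 in WT and 6.87 in CBS-KO arrays, and Klra17 of 6.00 and 7.07. Below the filter, too, the inflammasome sensor gene Nlrp3 had means of 6.25 and 7.21 and the cytokine gene Il1a of 5.70 and 6.57, again without overlap between the groups. In all other output genes below the filter the groups overlapped, namely Il6, Il10, Il12b, Il23a, Csf2, Cxcl2, Ccl2, Ccl4 and Ptgs2. Clec1b, the lectin receptor of platelets, had levels of 6.73, 6.23 and 6.76 in WT and 6.95, 7.21 and 7.14 in CBS-KO arrays. Klra2, Klra17, Nlrp3, Il1a and Clec1b were chosen after their values were seen.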
